A study of Mus musculus with 7 samples.

Results

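Of 18189 cytosines listed for the rescue experiment, 625 were at least 20 percentage points more methylated in Uhrf1-/- cells carrying wild-type human UHRF1 than in wild-type cells. They were chosen by a rule on reads and levels: 10 or more reads in the wild-type rescue and in both wild-type libraries, and a rescue level at least 20 points above the level of the pooled wild-type reads. The read minimum left 7430 sites, so the 625 were 8.41% of those that could be chosen. The rescue and wild-type values were used in the choice and are given as a description. The levels in 3KR, Uhrf1-/- and Mof knockdown cells were not used in it.

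UHRF1 binds hemimethylated CpG sites behind the replication fork and brings the maintenance methyltransferase DNMT1 to them. Without it, methylation is diluted at each cell division. DNMT3A and DNMT3B place methyl groups without a methylated template and are active in mouse embryonic stem cells.

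Methylation was measured by double-enzyme reduced representation bisulfite sequencing in J1 mouse embryonic stem cells, a male line grown here in serum with leukemia inhibitory factor. The groups were Uhrf1-/- cells with wild-type human UHRF1 (wild-type rescue, 1 library), Uhrf1-/- cells with human UHRF1 carrying K667R, K668R and K670R (3KR rescue, 1 library), Uhrf1-/- cells (2 libraries), cells with a stable Mof knockdown (1 library) and wild-type cells (2 libraries). MOF is a lysine acetyltransferase, and the series title names acetylation of UHRF1 by MOF as its subject. The labels give no clone, promoter or expression level for the rescue constructs and no separate cultures for libraries of a group, so any p-value here rests on differences between libraries that may be technical repeats. The rescue protein is human and the cells are mouse in both rescue groups.

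Sequence could be read for members in RefSeq promoter windows, which run from 250 bases before to 50 bases after a gene's start (GRCm38.p6, the mm10 chromosomes). The windows held 298 sites with enough reads, 12 of them members, and all 298 were the C of a CpG. Stretches around the members of 6 promoters are shown because they give the base context of the sites described here. Each reads 5′ to 3′ in the direction of its gene, with the CpG of a member in capitals.
Rnf224: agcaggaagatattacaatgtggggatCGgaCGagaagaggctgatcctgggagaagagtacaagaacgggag
Nphs1: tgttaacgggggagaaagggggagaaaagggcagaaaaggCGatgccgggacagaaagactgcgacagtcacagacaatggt
Nfix: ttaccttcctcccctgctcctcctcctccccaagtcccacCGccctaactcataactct
Syde1: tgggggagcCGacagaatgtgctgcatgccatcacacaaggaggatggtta
Tnfsf13: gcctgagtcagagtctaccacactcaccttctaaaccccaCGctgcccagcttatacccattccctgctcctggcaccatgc
Ppp1r18: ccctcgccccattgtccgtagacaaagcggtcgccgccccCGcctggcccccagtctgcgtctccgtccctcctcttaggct
The Rnf224 stretch is chr2:25236965-25237037 on the minus strand, the Nphs1 stretch chr7:30459923-30460004 on the plus strand and the Nfix stretch chr8:84773411-84773469 on the minus strand. The Syde1 stretch is chr10:78592164-78592214 on the minus strand, the Tnfsf13 stretch chr11:69685609-69685690 on the minus strand and the Ppp1r18 stretch chr17:35866027-35866108 on the plus strand. Counted once per site, the window around a member held a median of 6.5 CpGs, against 18 for the other sites. A window with many sites counts many times in these medians. Counted once per window, the median over all 32851 RefSeq windows was 7, which is an unlike measure.

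At the Nphs1 site, in the promoter of the gene for nephrin, 47 of 74 reads were methylated in the wild-type rescue (63.5%), 0 of 59 in the 3KR rescue, 0 of 12 and 1 of 8 in the Uhrf1-/- libraries, and 8 of 28 and 14 of 39 in the wild-type libraries. The Nfix site, 18 bases before the start of a nuclear factor I gene, had 46.4% in the wild-type rescue (97 reads), 0% in the 3KR rescue and both Uhrf1-/- libraries, and 10 of 92 and 18 of 94 methylated reads in the wild-type libraries. Both sites stood well above both wild-type libraries in the wild-type rescue and near 0 in 3KR cells. The second CpG shown for Rnf224 had 72.5% in the wild-type rescue, 20% in the 3KR rescue, 0% in both Uhrf1-/- libraries, and 26.3% and 50% in the wild-type libraries. The site of Ppp1r18, which encodes a protein phosphatase 1 partner, lies in a CpG island and had 26.3% in the wild-type rescue on 5 of 19 reads, with no methylated read among 28 in wild type.

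The share of sites past the rule was set beside an equal threshold between the wild-type libraries. Wild-type library 1 was at least 20 points above library 2 at 8.99% of the 7430 sites, and library 2 above library 1 at 987 sites (13.3%). The wild-type rescue was at least 20 points below wild type at 1262 sites (17%), so losses outnumbered gains. The members were chosen against 2 pooled libraries, whose sampling error is smaller than that of 1. Against a single wild-type library, the like-for-like comparison, the rescue was 20 points higher at 884 sites (11.9%) for library 1 and at 8.99% of the sites for library 2, which is within the range of the wild-type libraries against each other. The authors' deposited table gives a q-value under 0.05 for the rescue against wild type at 479 of the 625 members (76.6%). It does so at 1865 of the 7430 sites with enough reads, of which 665 were higher in the rescue. This q-value compares the same reads that chose the members, so a high share among them is partly fixed by the choice.

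**Figure D1:**
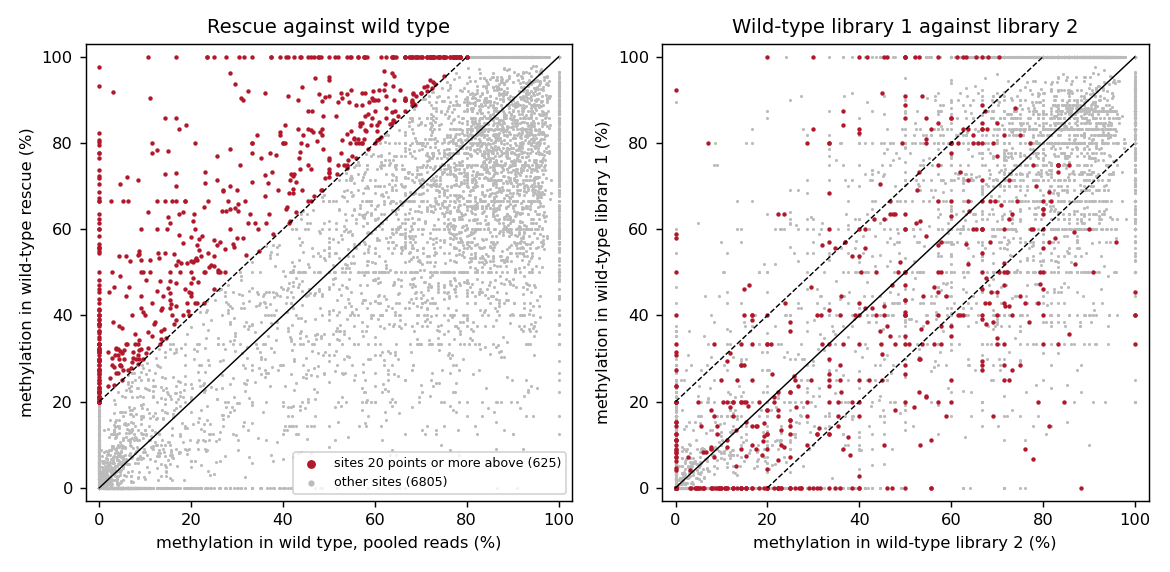
Methylation (%) at the 7430 sites with enough reads; red points are the 625 members and grey points the 6805 other sites. The left panel sets the wild-type rescue (y) against the pooled wild-type reads (x), the right panel wild-type library 1 (y) against library 2 (x). Solid lines mark equal levels and dashed lines a difference of 20 points; the members lie above the left dashed line by rule and spread over the right panel on both sides of its diagonal.

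The count changed with read depth. The median depth over members was 24 reads in the wild-type rescue and 14 and 20 in the wild-type libraries, and over other sites 32 reads in the rescue and 16 and 24 in wild type. With 20 or more reads in each of the 3 libraries, 102 of 1773 sites passed (5.75%), against 3.61% and 6.6% for the equal rules between the wild-type libraries. With 30 or more reads, 27 of 732 sites passed (3.69%), against 2.05% and 3.83%. The share of members lay below both equal rules at 10 reads and between them at 20 and 30 reads, and all of these shares fell as the minimum rose. Against single wild-type libraries, the rescue was 20 points higher at 8.29% (library 1) and 5.36% (library 2) of sites at 20 reads. At 30 reads these shares were 5.05% and 3.83%. At 20 and 30 reads the share for library 1 lay above both equal rules, and that for library 2 did not.

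**Figure D2:**
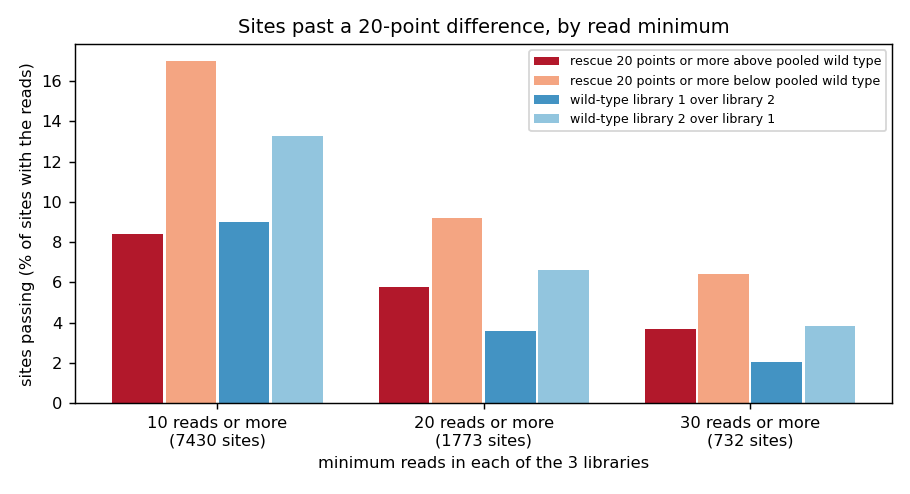
Share of sites (%) that passed a 20-point difference, for read minimums of 10, 20 and 30 in the 3 libraries (7430, 1773 and 732 sites). Red and orange bars are the wild-type rescue above and below pooled wild type, and blue bars the wild-type libraries against each other; all shares fell with the read minimum, from 8.41% to 3.69% for the members.

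Reads also came in pairs more often than singly. Where both methylated and unmethylated reads were present, the methylated count was even at 65.1% of sites in the wild-type rescue, 78.2% in the 3KR rescue, 75.4% and 72.5% in the Uhrf1-/- libraries, and 75.03% and 67.2% in the wild-type libraries. Wild-type library 1 had exactly 2 methylated reads at 477 of these sites and exactly 1 at 119. A count of reads may therefore stand for fewer DNA molecules, and the 95% Wilson intervals given below cover counting error of reads only. Whether the pairs are mates of 1 fragment was not tested.

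The members ran from the threshold to 97.6 points above wild type, with a mean of 34.9 and a median of 30.4 points. In the band from 20 to 30 points there were 302 members (48.3%), and 52 (8.32%) lay 60 or more points above. At the threshold, a site at chr15:85600083 had 42.9% in the rescue and 22.9% in wild type, 20 points apart and inside, and one at chr11:117268703 had 78.6% and 58.6%, 19.95 points apart and outside. The rescue was above both wild-type libraries at 591 members (94.6%) and at least 20 points above both at 409 (65.4%). The wild-type libraries were themselves 20 or more points apart at 215 members (34.4%), against 22.3% of all sites that could be chosen. At 107 members every rescue read was methylated.

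Members chosen on 1 wild-type library were read again in the other, which the choice had not seen. The 884 sites chosen on library 1 averaged 65.8% in the rescue and 29.3% in library 1, a difference of 36.5 points, and 47.9% in library 2, a difference of 17.9 points. The sites chosen on library 2 averaged 65.2% in the rescue and 29.96% in library 2, and 39.6% in library 1, a difference of 25.6 points. The sites not chosen on library 1 differed by a mean of -7.34 points, rescue minus library 2, and those not chosen on library 2 by -5.59 points, rescue minus library 1. The differences were smaller against the unused library than against the library that chose the sites. The rescue value that chose the sites is also the value compared here, so the sign of these differences, for chosen and other sites alike, is partly fixed by the choice.

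In cells without wild-type UHRF1 the members were low. They averaged 66.4% in the wild-type rescue, 14.6% in the 3KR rescue, 8.35% ± 0.105 in Uhrf1-/- (SD, n = 2 libraries) and 31.7% ± 2.11 in wild type (SD, n = 2 libraries). The 6805 other sites averaged 38.6% in the wild-type rescue, 13.7% in the 3KR rescue, 8.53% ± 0.344 in Uhrf1-/- and 45.7% ± 1.01 in wild type (SD, n = 2 libraries each). The 2 sets of sites were thus nearly level in Uhrf1-/- and 3KR cells while standing on opposite sides of wild type in the rescue. At 163 members (26.1%) no methylated read was seen in either Uhrf1-/- library or the 3KR library. The 3KR level passed the wild-type rescue level at 7 members and the Uhrf1-/- mean passed it at 0.

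The 469 members also listed in the Mof knockdown table averaged 27.7% in the knockdown library and 30.5% ± 2.95 in wild type (SD, n = 2 libraries). The knockdown mean lay below both wild-type libraries at these sites (28.4% and 32.6%). The 5616 other sites with a knockdown value averaged 37.3% in the knockdown and 45.3% ± 1.02 in wild type. Because the rule favours low wild-type readings, the gap between knockdown and wild type at members can be narrowed by the choice and is not a measure of the knockdown's effect there. The wild-type rescue averaged 64.7% at these 469 members.

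Members and other sites differ in level by construction, so they were compared within classes of level. Within classes of wild-type level the members were higher than the other sites in the 3KR rescue, in each Uhrf1-/- library and in the Mof knockdown, in all 5 classes that held members. Among sites at 5% or less in wild type, 148 members averaged 6.10% in the 3KR rescue, 4.92% ± 0.0988 in Uhrf1-/- and 3.86% in the Mof knockdown, and 2269 other sites averaged 1.06% in the 3KR rescue, 1.25% ± 0.214 in Uhrf1-/- and 2.01% in the knockdown (SD, n = 2 libraries). At wild-type levels over 60% and up to 80%, 122 members averaged 27.4% in the 3KR rescue and 14.8% ± 0.900 in Uhrf1-/-, and 1051 other sites 19.3% and 11.8% ± 0.320. Within classes of rescue level the order turned round in all 5 classes with members. Among sites over 80% in the rescue, 233 members averaged 24.5% in the 3KR rescue and 13.5% ± 0.277 in Uhrf1-/-, and 1108 other sites 30.04% and 17.8% ± 0.994. The classes use the wild-type and rescue readings that chose the members, and choosing low wild-type and high rescue readings with sampling error can give this turn of order by itself. The values are therefore a description of the members and no evidence that they differ from other sites in 3KR, Uhrf1-/- or knockdown cells.

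**Figure D3:**
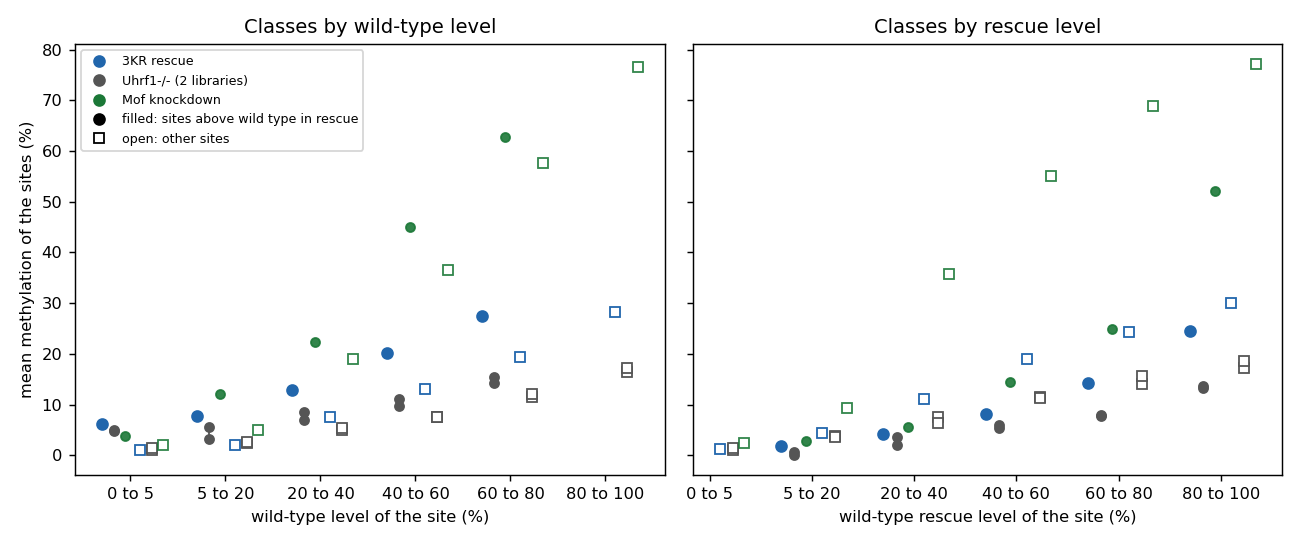
Mean methylation (%) of members (filled circles) and other sites (open squares) in 3KR rescue (blue), the 2 Uhrf1-/- libraries (grey, joined by a line) and Mof knockdown (green), by class of wild-type level (left) or of wild-type rescue level (right). Members lie above other sites in every class with members on the left, as in the lowest class with 6.10% against 1.06% in 3KR rescue, and below them in every such class on the right.

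Members without any methylated read in wild type were 116 of 1885 such sites (6.15%), with 4477 wild-type reads in all. They averaged 39.6% in the wild-type rescue (20% to 97.6%), 6.89% in the 3KR rescue and 4.57% ± 0.0937 in Uhrf1-/- (SD, n = 2 libraries). The 1769 other sites with no methylated wild-type read averaged 1.47% in the wild-type rescue, 0.956% in the 3KR rescue and 1.09% ± 0.251 in Uhrf1-/-. A methylated read was seen in the 3KR library at 42 of the 116 members (36.2%), against 178 of the 1769 other sites (10.1%). Both Uhrf1-/- libraries had 1 at 14 members (12.1%), against 79 other sites (4.47%). In the Mof knockdown, 68 of 90 members (75.6%) and 1302 of 1433 other sites (90.9%) were at 0. The rescue level that chose the members split these 2 sets, which can by itself part sites open to methylation from sites that are not. Annotation was not matched either. Among sites at 5% or less in wild type, 12 of 769 island sites were members, against 148 of 2417 over all. The values are therefore a description.

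A site at 0 in 1 wild-type library allows the rescue and the other wild-type library to be set side by side. Of 2412 sites with no methylated read in library 1, the rescue was at 20% or more at 237 (9.83%) and library 2 at 145 (6.01%). The rescue was at 50% or more at 64 of them (2.65%) and library 2 at 14 (0.580%). Of 2305 sites with no methylated read in library 2, the rescue was at 20% or more at 172 (7.46%) and library 1 at 84 (3.64%), and at 50% or more at 47 (2.04%) and 10 (0.434%). Set against the second wild-type library, the rescue held more such sites at both levels, and relatively more at 50% than at 20%. The rescue was read more deeply at these sites, with a median of 28 reads against 20 in library 2, and 27 against 18 in library 1. With 20 or more reads in each of the 3 libraries, 650 sites were at 0 in library 1. There the rescue was at 20% or more at 39 (6%) and library 2 at 11 (1.69%). Of 656 such sites at 0 in library 2, the rescue was at 20% or more at 23 (3.51%) and library 1 at 8 (1.22%). The rescue was still read more deeply, with medians of 49.5 and 48 reads against 32 in each wild-type library. The readings are those used by the rule and the rescue has 1 library, so these counts are a description.

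Among the 116, 29 members were over 50% in the wild-type rescue, in 27 separate places. They averaged 69.1% in the wild-type rescue, 17.3% in the 3KR rescue, 9.89% ± 0.126 in Uhrf1-/- (SD, n = 2 libraries) and 0% in wild type on 1175 reads. The 3KR library had a methylated read at 20 of the 29, and the Mof knockdown at 3 of the 22 it listed. Another site with enough reads lay within 100 bp of 25 of them. At 12 of these 25 (48%) such a neighbour was methylated at 60% or more in wild type. Among all 116 members the count was 19 of the 99 with a neighbour (19.2%). For the other sites with no methylated wild-type read it was 102 of 1586 (6.43%). The sets were not matched for annotation.

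The named single members were the 10 with the largest difference among those with 20 or more reads in each of the 3 libraries. The first lies in an intron of Col4a2, which encodes a chain of basement membrane collagen (chr8:11447869, plus strand). It had 67 of 73 reads methylated in the wild-type rescue (91.8%, 95% interval 83.2 to 96.2), 22 of 42 in the 3KR rescue (52.4%), 8 of 28 and 6 of 20 in the Uhrf1-/- libraries, 0% on 19 reads in the Mof knockdown, and 0 of 28 and 2 of 38 in the wild-type libraries. All 4 libraries of Uhrf1-/- background were above both wild-type libraries and the knockdown. The next sites listed, 72 and 126 bp away, had 56.2% and 68.1% in the rescue and 58.8% and 80.6% in wild type, and so did not share the difference.

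An intron site of Smg9, a nonsense-mediated decay factor (chr7:24408414, plus strand), followed the same pattern. It had 41 of 57 methylated reads in the wild-type rescue, 10 of 26 in the 3KR rescue, 6 of 30 and 2 of 12 in Uhrf1-/-, 0% on 18 reads in the knockdown and 0 of 51 in wild type. A site 11 bp away was at 69.0% in the rescue and 80.8% in wild type. Between the genes beside Irf2bp1, a corepressor gene, a site (chr7:19009799, plus strand) had 28 of 34 in the wild-type rescue, 8 of 27 in the 3KR rescue, 4 of 23 and 0 of 12 in Uhrf1-/-, 0% in the knockdown and 0 of 65 in wild type. Its neighbours 8 and 16 bp away were at 81.8% and 94.1% in the rescue and 83.1% and 93.5% in wild type. In an intron of Dhx34, an RNA helicase gene (chr7:16215549, plus strand), a site had 24 of 34 in the wild-type rescue, 5 of 22 in the 3KR rescue, 0 of 18 and 2 of 10 in Uhrf1-/-, and 0 of 67 in wild type. A site 8 bp from it was at 84.4% in the rescue and 96.8% in wild type. In an intron of Ypel2 (chr11:86989839, minus strand), 66 of 85 reads were methylated in the wild-type rescue, 6 of 48 in the 3KR rescue, 0 of 22 and 0 of 20 in Uhrf1-/-, and 0 of 146 in wild type. Its neighbours over 100 bp away were at 75.3% and 70% in the rescue and 92.8% and 91.0% in wild type, and one 28 bp away was at 0% in both.

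Each of these 5 sites was at or near 0 in wild-type cells, was methylated in most of the rescue reads, and had at least 1 site within 150 bp that was over 50% methylated in both. Low neighbours were also present: a site 134 bp from the Irf2bp1 site and one 118 bp from the Dhx34 site were at 0% in the rescue and in wild type, and one 139 bp from the Smg9 site was at 0% in the rescue and 10.3% in wild type. Bisulfite reads do not tell an unmethylated cytosine from a thymine in the DNA, and the tables hold no genotype. Whether the wild-type and Uhrf1-/- lines have the same base at these positions was not tested.

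The other 5 named sites were 1 intergenic site and 4 exon sites. A site 1121 bp from Mgrn1, a ubiquitin ligase gene (chr16:4884979, minus strand), had 85.7% in the wild-type rescue, 0% in the 3KR rescue, 0% and 4.35% in Uhrf1-/-, and 20% and 14.3% in wild type. An exon site of Bpnt1, a nucleotidase gene (chr1:185330752, minus strand), had 15 of 24 in the wild-type rescue, 3 of 20 in the 3KR rescue, 0% in both Uhrf1-/- libraries and the knockdown, and 0 of 53 in wild type. A site 135 bp from it was at 94.4% in the rescue and 80.8% in wild type. An exon site of the kinase gene Map3k10 had 95.1% in the wild-type rescue, 12.5% in the 3KR rescue, 0% and 22.2% in Uhrf1-/-, and 47.1% in wild type. An exon site of the endocytosis gene Fcho1 had 70.8% in the wild-type rescue, 0% in the 3KR rescue and 22.95% in wild type, and one of the ceramide synthase gene Cers1 had 62.8%, 10.3% and 14.9%. In the Uhrf1-/- libraries the Fcho1 site had 0% in each, and the Cers1 site 7.14% and 0%. The Cers1 site also lies in Gdf1, which shares the locus.

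**Figure D4:**
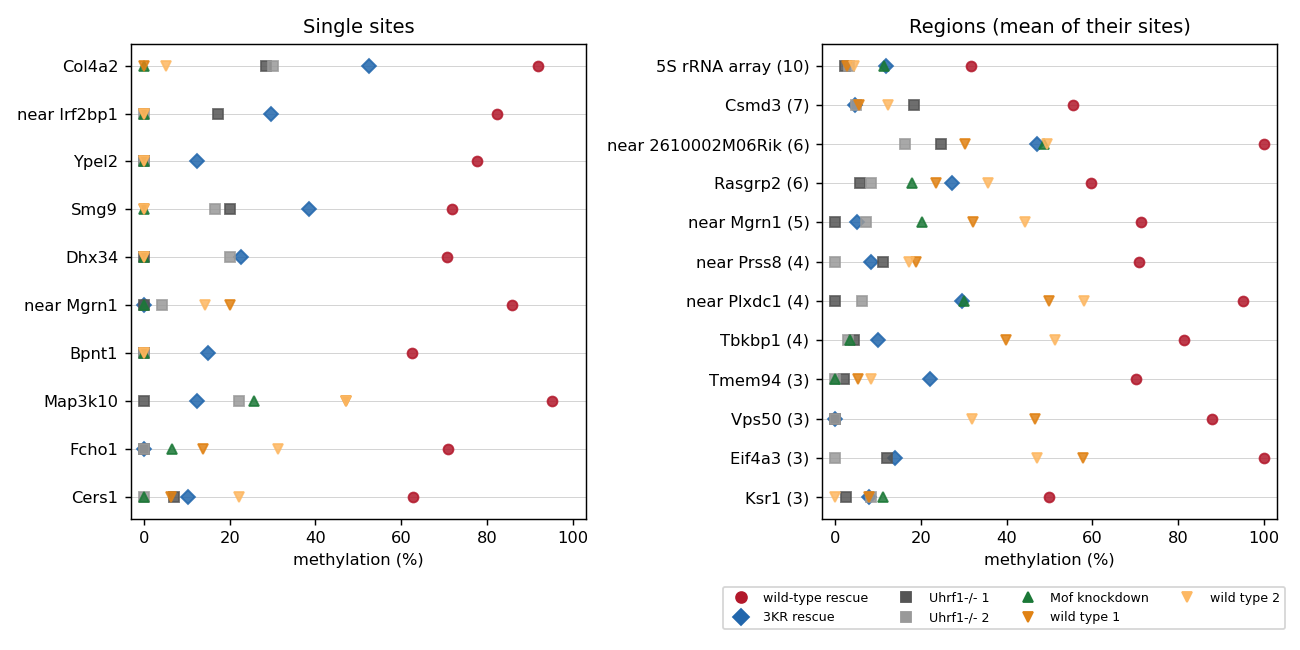
Methylation (%) in every library at the 10 named single members (left) and, as the mean of their members, in the 12 named regions (right; number of members in parentheses), labelled by gene or nearest coding gene. The wild-type rescue (red circles) is the rightmost point in each row, as at Col4a2 with 91.8%, and the 3KR rescue (blue diamonds) and Uhrf1-/- (grey squares) lie nearer 0; points at the same level overlap.

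Members lay in 468 regions when members up to 1000 bp apart were joined, of which 364 held a single member, 73 held 2 and 31 held 3 or more (115 members). The regions of 3 or more spanned at most 139 bp and held 141 listed sites, of which 115 were members and 0 were 20 points below wild type. The equal rules gave 21 such regions for library 1 over library 2 and 46 for library 2 over library 1. Of all members, 41.8% had another within 1000 bp and 37.1% within 100 bp, so most members with another nearby had it within 100 bp.

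The share of neighbours that passed as well fell with distance. Within 100 bp, 30.9% of the neighbours of members were members, against 21.8% and 26.0% under the equal rules. From 101 to 1000 bp it was 15.2%, against 5.82% and 15.2%, and from 1001 to 10000 bp 9.52%, against 1.47% and 9.60%. The background shares were 8.41% for members and 8.99% and 13.3% for the equal rules. Beyond 1000 bp the share of members was close to its background.

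**Figure D5:**
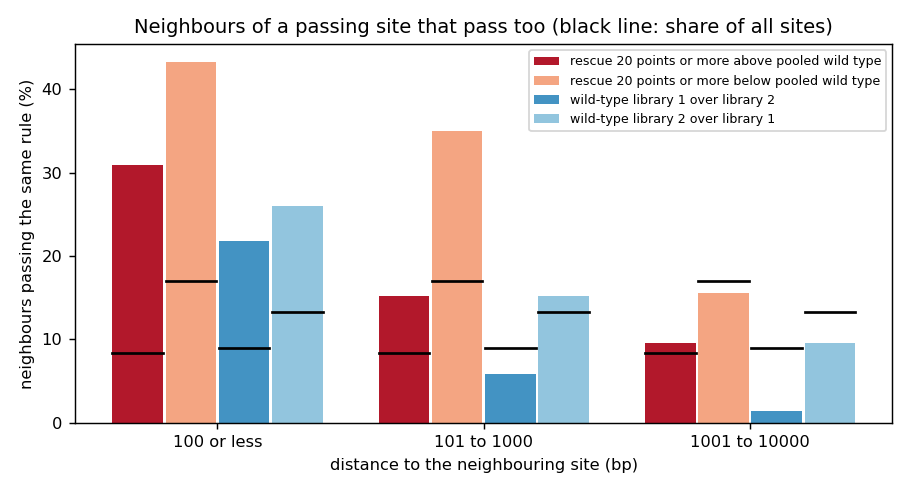
Share (%) of neighbouring sites that passed the same rule as a passing site, by distance in bp, for the wild-type rescue above (red) and below (orange) wild type and the wild-type libraries against each other (blue); black lines mark each rule's share over all 7430 sites. For members the share fell to 9.52% at 1001 to 10000 bp, beside a background of 8.41%.

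The region with most members, chr8:123622096-123622169, lies in the array of 5S ribosomal RNA genes, where RefSeq places 43 genes and pseudogenes. It is 50 to 123 bp past the higher-coordinate end of n-R5s149. The strand of that gene was not used, so the side of the gene is not given. The authors' annotation places these members in a promoter. The region held 10 members among 18 sites, with all members on the minus strand and 18 to 20 rescue reads at each site, so they share reads. The members averaged 31.8% in the wild-type rescue, 11.9% in the 3KR rescue, 2.91% ± 0.652 in Uhrf1-/-, 11.4% in the Mof knockdown and 3.60% ± 1.05 in wild type (SD, n = 2 libraries). The 8 sites between them averaged 9.85% in the rescue and 5.98% in wild type. The 5S genes are repeated, and how reads were assigned among the repeats was not tested.

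A region in Csmd3, a large transmembrane protein gene (chr15:48791744-48791856), held 7 members of 8 sites, at 55.6% in the wild-type rescue, 4.76% in the 3KR rescue, 18.4% and 4.84% in Uhrf1-/-, and 5.65% and 12.3% in wild type. A region between genes at chrX:107737328-107737425 held 6 members, all at 100% in the wild-type rescue on 12 to 14 reads, with 47.0% in the 3KR rescue, 24.8% and 16.2% in Uhrf1-/-, 48.8% in the Mof knockdown, and 30.3% and 49.4% in wild type. The 3KR and knockdown means there lay within or beside the wild-type values. The 3KR mean rested on 44 reads summed over the 6 members, 7 or 8 at each, and single members ran from 14.3% to 75%. A region in Rasgrp2, which encodes an exchange factor for Rap GTPases (chr19:6414574-6414694), held 6 members at 59.6% in the wild-type rescue, 27.3% in the 3KR rescue, 7.11% ± 1.72 in Uhrf1-/- and 29.6% ± 8.50 in wild type. Beside Mgrn1 (chr16:4884892-4884979), 5 members averaged 71.4% in the wild-type rescue, 5.21% in the 3KR rescue and 38.2% ± 8.54 in wild type.

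The remaining named regions held 3 or 4 members. Those of 4 lay near the protease gene Prss8 (70.8% in the wild-type rescue, 8.33% in the 3KR rescue and 18.2% in wild type), near Plxdc1 (95.2%, 29.5% and 54.0%) and in Tbkbp1 (81.3%, 10% and 45.6%). Those of 3 lay in Tmem94 (70.1% in the wild-type rescue, 22.2% in the 3KR rescue and 6.80% in wild type), in the tethering factor gene Vps50 (87.9%, 0% and 39.3%), in the exon junction gene Eif4a3 (100%, 14.1% and 52.5%) and in the kinase scaffold gene Ksr1 (49.9%, 7.95% and 3.92%). These 4 were the regions of 3 with the largest difference from wild type among 23. Over all 31 regions of 3 or more, the 3KR mean ran between 0% and 48.4% with a median of 12.8%, beside a median of 5.45% for the Uhrf1-/- mean and 33.9% for the wild-type mean. The 3KR mean was above the wild-type mean in 8 of the 31 regions, highest in Septin9 with 48.4% in the 3KR rescue and 43.0% in wild type; Septin9 is named after its values were seen.

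By the authors' annotation, 240 members lay in introns (38.4%, against 31.8% of all sites that could be chosen), 189 in promoters (30.2%, against 37.4%), 131 between genes (20.96%, against 23.2%) and 65 in exons (10.4%, against 7.62%). CpG islands held 16 members (2.56%, against 11.9%) and island shores 197 (31.5%, against 25.9%). Members were thus scarce in islands: 1.81% of island sites with enough reads were members, against 10.2% of shore sites and 8.92% of the others. Among island sites at 5% or less in wild type the share was 1.56%, against 6.44% in shores and 11.1% elsewhere, so the lower share in islands also held at low wild-type levels. The wild-type libraries were 20 points apart at few island sites as well, with 0.903% for library 1 over library 2 and 2.71% for library 2 over library 1. In the same order, these equal rules passed at 11.5% and 16.6% of intron sites, where 10.2% were members. For exon sites the values were 12.7% and 16.4%, with 11.5% members, and for promoter sites 4.72% and 8.93%, with 6.81% members. In shores the equal rules passed at 5.93% and 10.5%. The higher shares in introns and exons and the lower share in promoters were therefore not particular to members. Promoter members averaged 54.5% in the wild-type rescue, 10.04% in the 3KR rescue, 5.24% ± 0.927 in Uhrf1-/- and 19.9% ± 1.60 in wild type, and intron members 72.2%, 19.5%, 9.67% ± 1.01 and 37.0% ± 1.28 (SD, n = 2 libraries).

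RefSeq placed 455 members inside 336 genes. Of the gene lists, lineage factors had sites in 6 of 25 genes and members in 2, with 3 members among 31 sites, near the share of 8.41% over all sites. Gata2, a blood progenitor transcription factor, had 2 members of 3 sites in its island, each with 4 of 18 reads methylated in the wild-type rescue, 0 of 8 in the 3KR rescue and 0 of 23 in wild type. The means over these 3 sites were 0% and 2.47% in the Uhrf1-/- libraries. Neurog1, a factor of neuronal commitment, had 7 of 33 in the wild-type rescue, 0 of 8 in the 3KR rescue and 0 of 22 in wild type at 1 of its 2 sites. Over its 2 sites the mean was 0% in each Uhrf1-/- library. Of germline genes, 2 of 30 had sites, and 1 of the 9 at Meioc, a gene of meiotic prophase, was a member with 42 of 56 methylated reads in the wild-type rescue, 0 of 16 in the 3KR rescue and 14 of 22 and 18 of 38 in wild type. Over the 9 Meioc sites the means were 15.0% and 11.2% in the Uhrf1-/- libraries and 23.3% in the 3KR rescue. Imprinted genes (11 sites in 4 genes) and pluripotency genes (4 sites in Sox2) had 0 members, which at that share is too few sites to read, and genes of the methylation machinery had 0 sites with enough reads.

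The 3KR rescue was compared with Uhrf1-/- at sites with 10 or more reads in these 3 libraries, which were 7287 of the whole table and 292 of the members. The 3KR level was at least 20 points above the Uhrf1-/- mean at 47 of the 292 members (16.1%), against 1149 of the 7287 sites (15.8%). It was at least 20 points below at 7 (2.40%), against 204 (2.8%). The share of members was close to that of all sites. Between the Uhrf1-/- libraries, library 1 was 20 points above library 2 at 21 of the 292 members (7.19%, against 7.09% of the 7287 sites) and library 2 above library 1 at 19 (6.51%, against 7.88%).

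Fitted over all sites, edgeR's quasi-likelihood test with Benjamini-Hochberg adjustment called 0 of the 292 members at an adjusted p under 0.05 and 20 points, and 10 of 6270 sites with both kinds of read (0.159%), all higher in 3KR. Without Uhrf1-/- library 1 or library 2, edgeR called 0 sites, with 33 and 59 higher in 3KR at an unadjusted p under 0.05; these fits set 1 library against 1, which are assumed to vary like the wild-type libraries. At an unadjusted p under 0.05 edgeR gave 11 members higher in 3KR (3.77%), against 177 of all sites (2.82%), and 0 members lower. With limma on the percentages, 0 members and 21 of all sites (0.335%) were called, and 25 members (8.56%) against 689 of all sites (11%) were higher at an unadjusted p under 0.05. Over all members the 3KR rescue averaged 6.25 points above Uhrf1-/-, against 5.13 points at the other sites, and the Uhrf1-/- libraries were 0.149 points apart at the members. The 3KR rescue has 1 library, so these differences carry no spread of their own.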

How the data were processed

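The authors deposited counts of reads per cytosine, total and methylated, with their annotation, per the file headers; cutadapt, Trim Galore, BSMAP 2.73 and mm10 are named in the submitters' processing notes. Their deposited q-value and difference of the rescue against wild type were copied, not recomputed. Every listed site had at least 5 reads per library. The difference of 20 points was checked in whole numbers. Members and gene lists were chosen with earlier results of these data known. Levels are unweighted means of site percentages. The 12 regions with most members (8 with 4 or more, and 4 of 23 with 3, ties broken by the larger difference the rule used) and 10 single members with the largest difference (20 or more reads per library) were named, plus list genes with a member. edgeR 4.0.16 (one term per library, group for methylation, all 6 libraries) and limma 3.58.1 ran in R 4.3.3, tested on simulated data; no replicate block was used. Python 3.11.15, numpy 2.4.6, pandas 2.3.3, scipy 1.17.1 and matplotlib 3.10.9 did the rest. RefSeq sequences and genes are GRCm38.p6.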

Additional observations from a re-analysis of the deposited data

How the results depend on the processing

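The count of members moved with every threshold: 102 at 20 reads, 1962 at 5 reads, 1193 at 10 points, 323 at 30 points and 173 at 40 points, and at most 884 against a single wild-type library. Library 1 over library 2 gave 64 and 2431 sites at 20 and 5 reads, and 1383, 308 and 139 at 10, 30 and 40 points; library 2 over library 1 gave 117 and 3146, and 1751, 512 and 247. The mean Uhrf1-/- level at members was 7.93% over pooled reads, 7.78% with 10 reads in both libraries and 8.68% with 1 value per cluster (8.28% to 8.42% leaving out a library). The 3KR level was 13.2% over pooled reads. The 3KR minus Uhrf1-/- difference was 5.23 points pooled, 5.90 with 10 reads and 5.88 per cluster (6.17 to 6.32 leaving out a library). Members 20 points higher in 3KR fell to 28 at 30 points (51 to 55 against 1 Uhrf1-/- library). Sites called over the whole table were 21 with limma, 0 with no coverage filter and 0 to 15 leaving out a library, and members called were 0 in each. Choosing on wild-type library 2 gave 25.6 points against library 1. Members with a neighbour were 37.1% at 100 bp. At 20 reads the share of members in promoters was 25.5%, against 49.6% of sites, in islands 4.90%, against 18.6%, and in shores 50%, against 35.7%. The causes were not tested. Leaving out the 10 members of the 5S array, and a 20-read minimum for neighbours, were added after seeing the data, and moved no value beyond the margin set for it. The margin was a ratio for counts and the SD between libraries for Uhrf1-/- levels and differences from them. For the 3KR level and the share with neighbours it came from a Wilson interval, which is no spread between libraries. Of 62 alternatives, 32 moved a value and 0 reversed one. Only the signed differences could reverse, because counts, levels and shares cannot change sign. No paired analysis was possible because the 3KR rescue and the wild-type rescue have 1 library each and no number in their labels.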

Other observations

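Shares of members differed between chromosomes, beside 8.41% over all. Chromosome X held 10 members among 41 sites with enough reads (24.4%), 9 of them in 2 regions, chromosome 19 held 36 of 260 (13.8%) and chromosome 15 held 47 of 344 (13.7%). Chromosome 13 held 10 of 232 (4.31%) and chromosome 17 held 23 of 474 (4.85%). Wild-type library 2 was 20 points over library 1 at 15.4% of sites on chromosome 19 and 14.2% on chromosome 15, above the shares of members there, and at 12.2% on chromosome X. Its share over all sites was 13.3%. Library 1 was 20 points over library 2 at 8.46%, 9.30% and 9.76% of sites on chromosomes 19, 15 and X. These lay below the shares of members there, beside 8.99% over all sites. Both Uhrf1-/- libraries were above both wild-type libraries at 20 of the 625 members (3.2%) and at 120 of the 6805 other sites (1.76%). Because the rule favours low wild-type readings, a higher share at members can come from the choice itself.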
